A study of Mus musculus with 9 samples.

Results

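The solute carriers described here are the protein-coding genes whose symbol is Slc2a, Slc4a, Slc5a, Slc6a, Slc7a, Slc8a, Slc9a, Slc16a or Slc38a followed by a number, chosen by symbol and by no measured value. With 1 gene that fits this rule left out, the 9 families held 103 such genes, of 18559 protein-coding genes with a count. Of these 103 genes, 87 passed the filter on low counts and were tested, among 15267 tested genes in all. The other 16 carriers had at most 33 counts in any library, and 1 of them, Slc2a7, had no rounded count in any library. A carrier can pass such a filter through the group where it is high, so counts over the 87 do not speak for all 103.

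RNA was measured in 9 libraries by RNA immunoprecipitation and sequencing (RIP-seq), in which an antibody pulls a protein down and the RNA that comes with it is sequenced. The cytoplasm of cortices from postnatal day 0 (P0) mice gave all 9 libraries, and the mice were heterozygous for CELF2 p.R493H, the *Celf2* KI allele. In the 3 CELF2-KI RIP libraries the fraction was incubated for 3 hours with a rabbit antibody to CELF2 (10 µg), and in the 3 IgG RIP libraries with normal rabbit IgG. The 3 input libraries came from an aliquot set aside before the antibody. There was no wild-type library among the 9, the sources do not say that the antibody tells the mutant protein from the wild-type one, and the fraction mixes neurons with glia, microglia and endothelial cells. In such bulk samples a level does not tell how many cells of a type gave the RNA or how much each held. All 3 conditions came from the same kind of cytoplasmic fraction, so the differences below are between treatments of it, not between tissues.

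CELF2 is an RNA-binding protein that binds UG-rich stretches of pre-mRNA and mRNA and acts on splicing, mRNA stability and translation. Solute carriers move nutrients, transmitters and ions across membranes, mostly with an ion gradient or in exchange for another solute. Slc7a, Slc38a and many Slc6a proteins carry amino acids and transmitters, Slc2a and Slc5a proteins carry sugars and related solutes, and Slc16a proteins carry lactate and other monocarboxylates. Slc4a, Slc9a and Slc8a proteins move bicarbonate, protons and calcium, many of them in exchange for or together with sodium. Most act at the plasma membrane, and a few, such as Slc6a17 and Slc38a9, are known mainly from vesicles or lysosomes.

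The level of a gene is given as CPM, its counts relative to a library size scaled by the trimmed mean of M values (TMM), and triplets of values are in the order of replicates 1, 2 and 3. The files give no transcript lengths, so CPM of different genes are not compared as amounts. A difference between conditions is a log2 fold change with its standard error (SE) and its false discovery rate (FDR) from edgeR's quasi-likelihood test, adjusted by the Benjamini-Hochberg method over all 15267 genes. Values written with ± are log2 fold changes and their SE. A gene was called where the FDR was under 0.01 and the estimated change at least 2-fold. Protein-coding counts were 13523190 to 16840230 in CELF2-KI RIPs, 9347252 to 14965224 in IgG RIPs and 55250725 to 78514665 in input. They made up 84% to 85.3% of the counts in CELF2-KI RIPs and 74.7% to 80.2% in input. In IgG RIPs the share was 52% and 53.8% in replicates 1 and 2 and 74.2% in replicate 3, which stood apart, and counts that turn on it are given below without it.

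More of the tested carriers were called higher in CELF2-KI RIPs than were called lower. Over IgG RIPs 27 of 87 were called higher (31%), beside 13.4% of all tested genes, and 1 was called lower (1.15%), beside 13.6%. Over input 23 were called higher (26.4%), beside 14.6%, and 2 were called lower (2.3%), beside 15.5%. Both calls were met by 17 carriers (19.5%), beside 7.58% of all tested genes, with 2.14-fold to 4.69-fold more over IgG RIP and 2.08-fold to 3.41-fold more over input. No carrier was called lower than both controls (0%), beside 9.54%. Of the 16 carriers that lay below both by estimate, 3 had an unadjusted p under 0.05 from edgeR in both comparisons, Slc2a6 and Slc2a8 among them. DESeq2 and limma-voom also called 0 carriers lower than both. On unscaled library totals of the tested genes edgeR called 2, Slc2a6 and Slc2a8, and without CELF2-KI RIP replicate 2 it called 1, Slc16a11. The few calls in the lower direction turned on single libraries. Below IgG RIPs 6 carriers were called without IgG RIP replicate 3 and 4 without CELF2-KI RIP replicate 2. Below input 0 were called without CELF2-KI RIP replicate 3, input replicate 2 or input replicate 3. Shares of all tested genes in these fits are not given.

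Among the 17 were Slc7a1, Slc7a2, Slc7a4, Slc7a5 and Slc7a11, Slc38a1 and Slc38a2, Slc6a6, Slc6a9 and Slc6a17, Slc2a10, Slc5a3, Slc4a4, Slc8a1, Slc16a9 and Slc16a14. In each of the 17 the lowest of 3 CELF2-KI RIP libraries exceeded the highest of 6 control libraries. Calls over both controls in these same libraries make this separation likely, so it is no added support for them. That separation held for 32 of the 87 tested carriers (36.8%), beside 25.2% of all tested genes. The comparisons over IgG RIP and over input share the CELF2-KI RIP libraries and are not independent of each other.

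**Figure D1:**
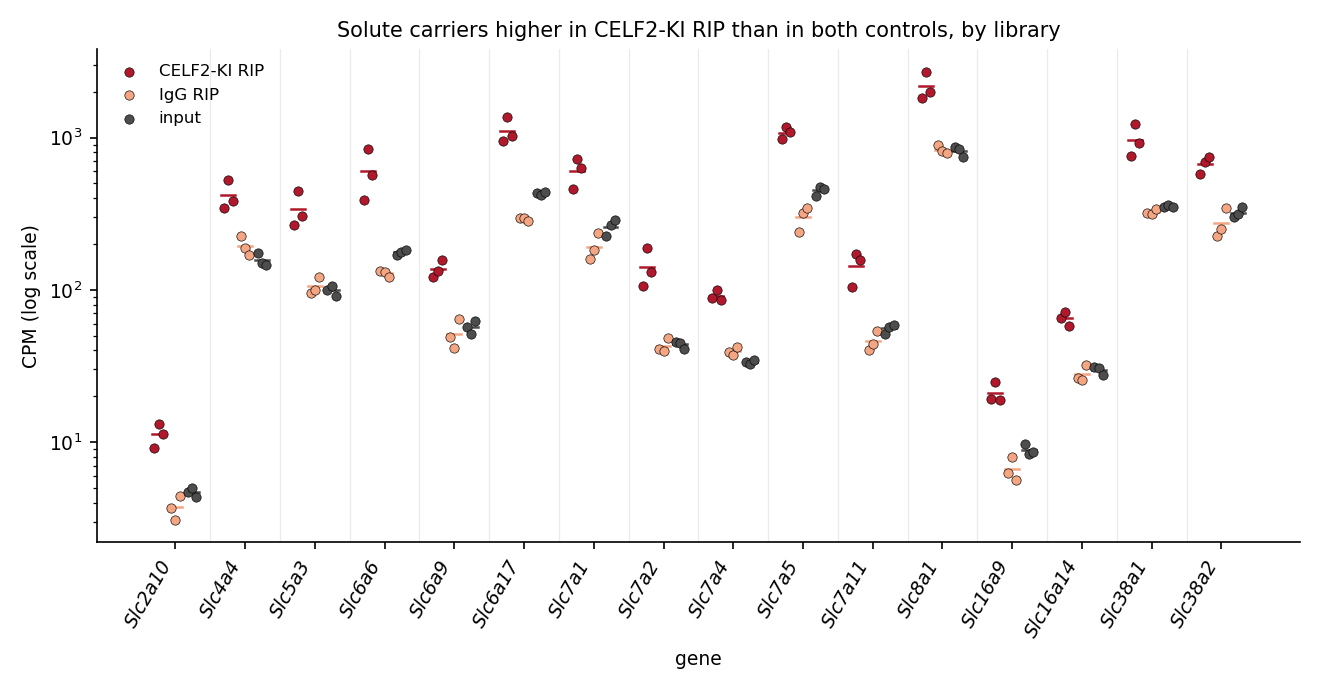
CPM on a log scale in each library for 16 of the 17 carriers called higher in CELF2-KI RIPs than in both controls, with 3 points per condition and a short line at their mean. For each gene the CELF2-KI RIP points lie above the IgG RIP and input points, from 9.12 to 13.2 CPM for Slc2a10 up to 1828 to 2712 CPM for Slc8a1.

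These counts moved with the scaling between libraries. Library totals here are sums over the tested protein-coding genes. With them in place of TMM, the median log2 fold change of all tested genes moved. It went from -0.06 to -0.42 over IgG RIP and from 0.19 to -0.27 over input. The carriers' calls then were 17 higher and 8 lower over IgG RIP, and 3 higher and 7 lower over input. Shares of all tested genes for these single comparisons are not given, so the counts do not set the carriers apart. Higher than both were 3 (Slc5a3, Slc6a6 and Slc7a2), beside 1.55% of all tested genes. With TMM computed over coding and noncoding genes together, 5 carriers were higher than both (these 3, Slc8a1 and Slc38a1) beside 2.46% of all tested genes, and 2 lower (Slc2a6 and Slc2a8). The median of the tested carriers was 0.49 over IgG RIP and 0.61 over input with TMM, and 0.14 and 0.16 with library totals. It lay above the median of all tested genes in either case.

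The Slc7a family held the most of these genes. They are light chains and cationic carriers for amino acids, and 5 of 11 tested members (45.5%) were higher than both controls. Its median was 1.34 on the log2 scale over IgG RIP and 1.01 over input, beside -0.06 and 0.19 for all tested genes. The family medians were 0.94 and 0.76 in Slc8a (3 genes), 0.68 and 0.99 in Slc6a (16 genes), 0.55 and 0.37 in Slc16a (13 genes) and 0.54 and 0.96 in Slc38a (11 genes). Lower medians over IgG RIP were seen in Slc9a (0.20 and 0.30, 9 genes), Slc2a (0.15 and 0.08, 10 genes), Slc4a (-0.06 and 0.43, 8 genes) and Slc5a (-0.24 and 0.82, 6 genes). So 7 of 9 families lay above the median of all tested genes over IgG RIP and 8 of 9 over input, Slc2a being the one below over input. Differences between families were not tested, since the members of a family are not replicates.

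**Figure D2:**
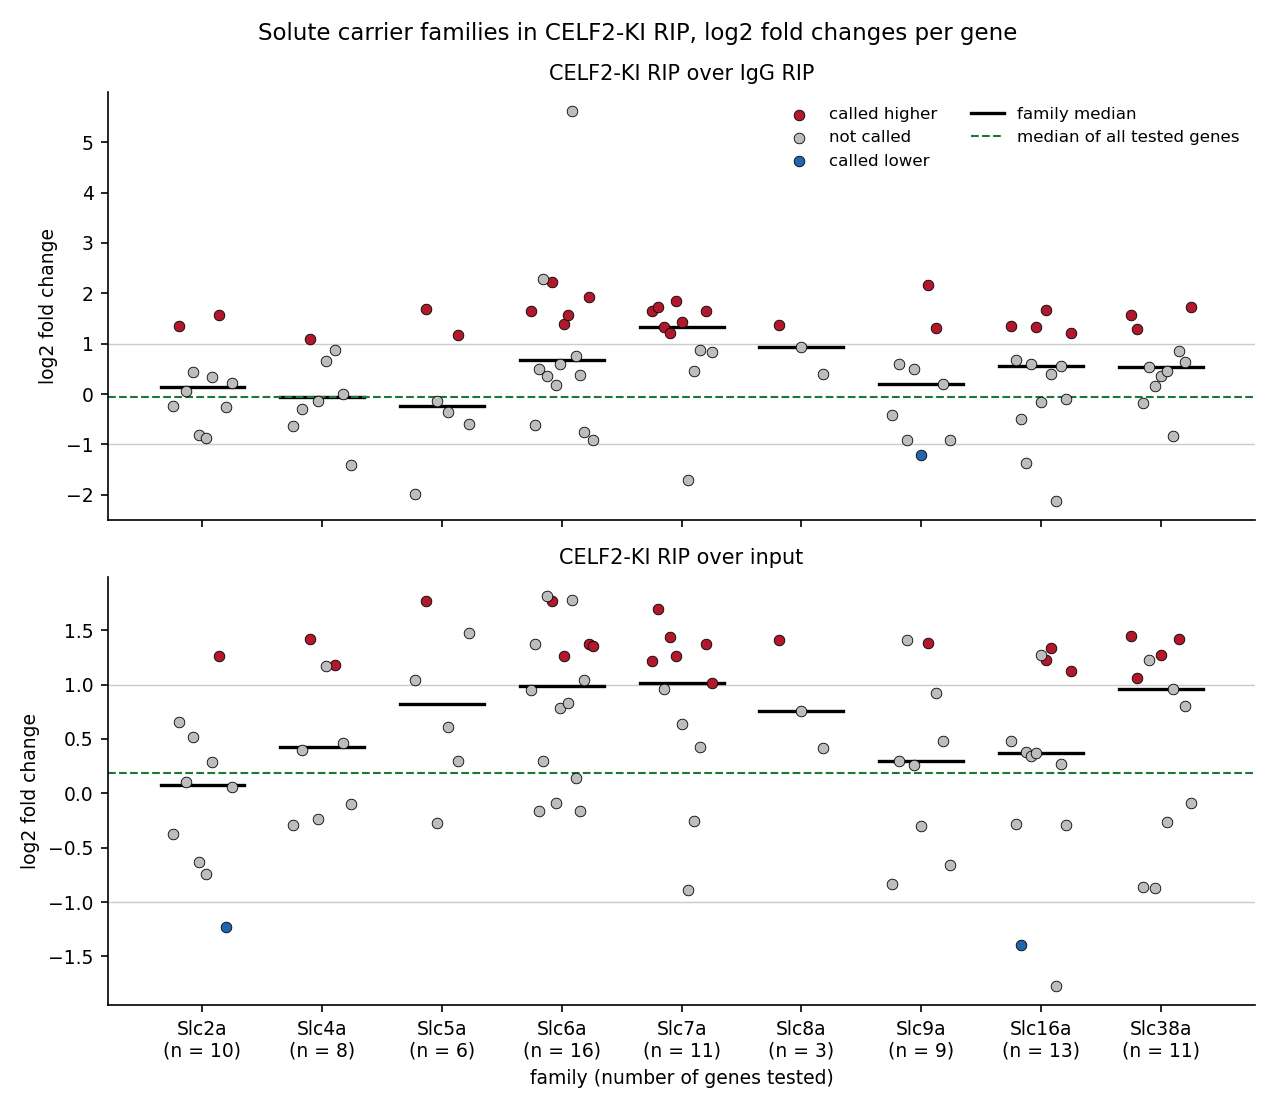
Log2 fold changes of the 87 tested carriers by family, over IgG RIP (upper panel) and over input (lower panel), with red points called higher, blue points called lower, black bars at family medians and a dashed line at the median of all tested genes. Slc7a has the highest median over IgG RIP, at 1.34, and its members range from -1.70 to 1.84.

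The share of tested members higher than both controls was 45.5% in Slc7a, 33.3% in Slc8a (1 of 3 genes), 18.8% in Slc6a, 18.2% in Slc38a, 16.7% in Slc5a, 15.4% in Slc16a, 12.5% in Slc4a, 11.1% in Slc9a and 10% in Slc2a, beside 7.58% of all tested genes. Outside Slc7a and the small Slc8a family these shares rest on 1 to 3 genes each. The Slc7a median lay above that of all tested genes over IgG RIP by 1.39, and by 1.27 to 1.59 under the 20 other settings and left-out libraries tried. The Slc6a, Slc8a, Slc16a and Slc38a medians also stayed above it in all 20. For Slc2a, Slc4a, Slc5a and Slc9a the difference changed sign in at least 1 of them, with ranges of -0.12 to 0.28, -0.14 to 0.45, -0.27 to 0.10 and -0.16 to 0.43. Genes named here beyond those called higher than both controls are the member with the most counts in each family, the carriers with the largest differences between IgG RIPs and input, and those whose comparisons point in opposite directions. Any other gene named was chosen after its values were seen.

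Level and call went together in these libraries. Tested genes were divided into deciles by mean CPM over the 9 libraries, CELF2-KI RIPs among them. A gene high in CELF2-KI RIPs is thereby moved up in level. Part of the link between level and call is therefore built in, and the same limit applies to the medians by level below. In the top 4 deciles, at 29.8 CPM and above, 14.8% of all genes were higher than both controls, and 15 of 44 carriers were. In the lower 6 deciles 2.76% of all genes and 2 of 43 carriers were. The highest decile held 16 carriers, 10 of them higher than both, beside 22.9% of all its genes, and the median log2 fold change over IgG RIP there was 1.57 for the carriers and 0.61 for all genes. In the lowest decile those medians were -0.12 and -0.51. The families differed in level as well, since the median of mean CPM was 366 in Slc8a, 76 in Slc7a, 9.14 in Slc2a and 3.8 in Slc5a. To set each family beside genes of its level, the median of all tested genes in each member's decile was taken, and the median of these over the members was 0.34 over IgG RIP for Slc7a, 0.61 for Slc8a, 0.16 for Slc6a, -0.03 for Slc38a, -0.20 for Slc16a, -0.33 for Slc2a, 0.04 for Slc9a and -0.39 for Slc5a, each below the family's own median, by little in Slc9a (0.20) and Slc5a (-0.24). For Slc4a it was 0.34, above the family's -0.06.

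**Figure D3:**
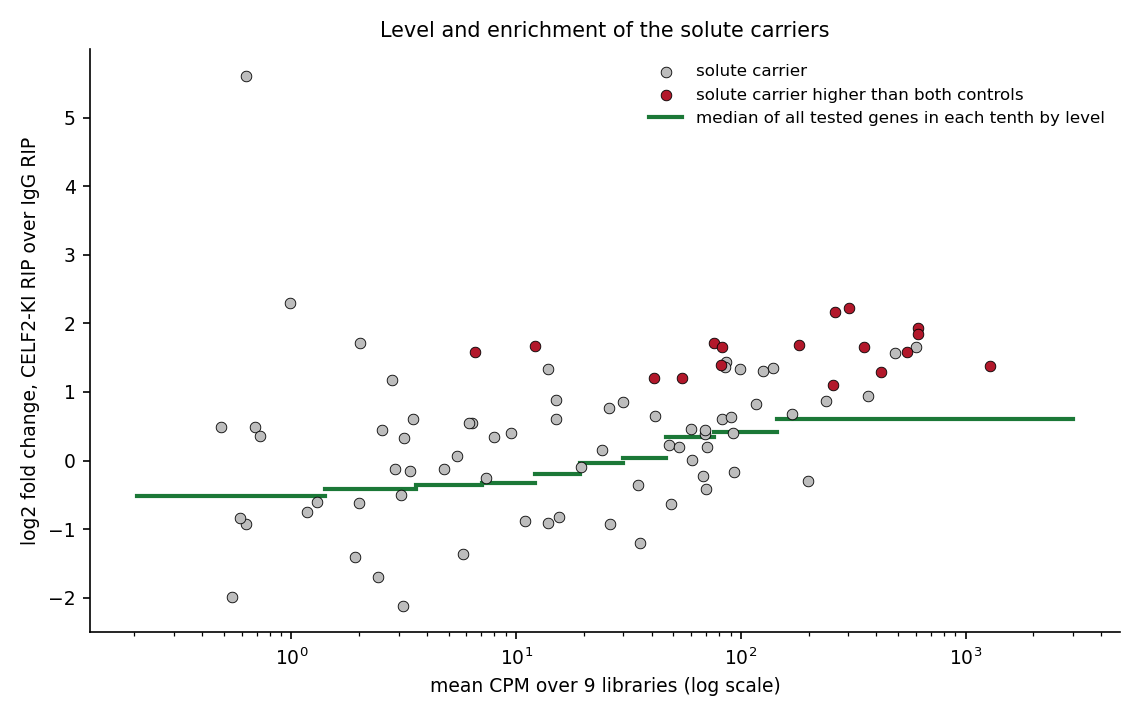
Log2 fold change over IgG RIP against mean CPM over 9 libraries (log scale) for the 87 tested carriers, with those called higher than both controls in red and green bars at the median of all tested genes in each decile by level. The bars rise from -0.51 to 0.61, and 15 of the 17 red points lie at 29.8 CPM or above.

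Among the Slc7a genes, Slc7a5 makes LAT1, the light chain that takes up large neutral amino acids, and had the most counts of its family. Slc7a5 was measured at 973, 1170 and 1096 CPM in CELF2-KI RIPs, 242, 321 and 343 CPM in IgG RIPs and 411, 476 and 463 CPM in input. It was 1.84 ± 0.15 (FDR = 1.07e-05) over IgG RIP and 1.26 ± 0.14 (FDR = 4.46e-05) over input. The controls did not overlap with CELF2-KI RIPs, and input lay above IgG RIPs in each library. Slc7a11 (xCT) exchanges cystine for glutamate. Slc7a11 had 104, 173 and 156 CPM in CELF2-KI RIPs, against 39.9, 44.3 and 53.7 CPM in IgG RIPs and 51.1, 57.3 and 58.7 CPM in input. Its log2 fold changes were 1.65 ± 0.19 (FDR = 6.14e-05) and 1.37 ± 0.19 (FDR = 0.000145), over IgG RIP and input in that order, and the 6 control libraries lay between 39.9 and 58.7 CPM.

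Slc7a1 (CAT-1) and Slc7a2 (CAT-2) carry the cationic amino acids arginine, lysine and ornithine. In CELF2-KI RIPs Slc7a1 stood at 460.1, 719 and 632 CPM, in IgG RIPs at 159.5, 181 and 236 CPM and in input at 225, 266 and 287 CPM. The CPM of Slc7a2 was 105.4, 188 and 131 in CELF2-KI RIPs, 41.0, 39.4 and 48.4 in IgG RIPs and 45.5, 44.9 and 41.0 in input. Both were above all controls, and CELF2-KI RIP replicate 2 was the highest library for each. Slc7a1 was at 1.65 ± 0.20 (FDR = 6.7e-05) over IgG RIP and at 1.22 ± 0.19 (FDR = 0.00035) over input. For Slc7a2 the changes were 1.72 ± 0.20 (FDR = 5.48e-05) and 1.69 ± 0.19 (FDR = 4.82e-05). Slc7a4 is related to these carriers by sequence, and its substrate is less clear. Slc7a4 was measured at 88.0, 100.1 and 85.2 CPM in CELF2-KI RIPs, 38.9, 37.6 and 42.0 CPM in IgG RIPs and 33.3, 32.8 and 34.4 CPM in input. The 3 CELF2-KI RIP libraries were close together for this gene, and the changes were 1.21 ± 0.11 (FDR = 1.77e-05) and 1.44 ± 0.11 (FDR = 5.32e-06).

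The rest of the family was mixed. Slc7a3 (CAT-3) and Slc7a6 (y+LAT2, another light chain) were called over IgG RIP, at 1.34 and 1.43, and reached 0.96 and 0.64 over input, under 2-fold. Slc7a14 was called over input at 1.01 and stood at 0.83 over IgG RIP. Slc7a8 (LAT2), a close relative of Slc7a5, had 64.5, 59.1 and 61.1 CPM in CELF2-KI RIPs, 40.9, 39.5 and 54.2 CPM in IgG RIPs and 70.3, 73.0 and 76.1 CPM in input. It was therefore between its controls, at 0.46 over IgG RIP (FDR = 0.0156) and -0.25 over input (FDR = 0.132). Slc7a7 (y+LAT1) had the lowest values of the family, -1.70 (FDR = 0.0189) and -0.89 (FDR = 0.155), at 0.62 to 4.63 CPM over the 9 libraries, and was not called.

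Slc7a light chains reach the plasma membrane bound to a heavy chain, and Slc3a2 (4F2hc) is the heavy chain of Slc7a5 and Slc7a11. Slc3a2 had 115, 94.2 and 95.9 CPM in CELF2-KI RIPs, against 169, 217 and 265 CPM in IgG RIPs and 237, 256 and 279 CPM in input. Slc3a2 went the other way from Slc7a5 and Slc7a11, lower than both controls at -1.09 ± 0.16 (FDR = 0.000289) and -1.34 ± 0.16 (FDR = 7.07e-05). No CELF2-KI RIP library was as high as any control. Of 11 tested Slc7a members, 10 lay above IgG RIPs by estimate and 9 above input, and Slc7a7 lay below both. Slc3a1, the heavy chain of Slc7a9, was measured at under 1 CPM in each library and was not called.

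The Slc38a family holds sodium-coupled carriers of glutamine and other neutral amino acids, and its best-counted members, Slc38a1 (SNAT1) and Slc38a2 (SNAT2), were higher than both controls. They are neighbours on chromosome 15, with 44 kb between them. In CELF2-KI RIPs Slc38a1 stood at 755, 1227 and 924 CPM, in IgG RIPs at 321, 313 and 338 CPM and in input at 350.2, 362 and 352 CPM. The CPM of Slc38a2 was 575, 688 and 744 in CELF2-KI RIPs, 225, 252 and 344 in IgG RIPs and 302, 313 and 349 in input. Slc38a1 was at 1.58 ± 0.16 (FDR = 2.57e-05) over IgG RIP and 1.45 ± 0.16 (FDR = 3.43e-05) over input. Slc38a2 was at 1.29 ± 0.17 (FDR = 0.000107) and 1.06 ± 0.16 (FDR = 0.000309). Its change over input was close to the 2-fold limit. It fell to 0.98 without CELF2-KI RIP replicate 3 and to 0.93 without input replicate 2, where it was no longer called. Under 4 of the 11 other settings of the fit Slc38a2 was called higher than both controls. Slc38a4, 295 kb further on in the same cluster, had 3.92, 13.9 and 8.57 CPM in CELF2-KI RIPs and was not called.

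Slc38a9, the lysosomal arginine sensor, and Slc38a6 were called over input only, at 1.42 and 1.27, with 0.86 and 0.35 over IgG RIP. Slc38a11 was called in one comparison and pointed the other way in the other. Slc38a11 was measured at 2.64, 2.39 and 2.59 CPM in CELF2-KI RIPs, 0.56, 0.99 and 0.79 CPM in IgG RIPs and 2.59, 3.17 and 2.36 CPM in input. CELF2-KI RIPs and input overlapped for it, and IgG RIPs were below both, so that it was 1.72 ± 0.33 (FDR = 0.0014) over IgG RIP, -0.09 over input and -1.81 ± 0.32 (FDR = 0.00196) in IgG RIPs over input. Slc38a5 (SNAT5) was the other carrier called in that direction between IgG RIPs and input, at -1.03 ± 0.21 (FDR = 0.00398). That call was lost without IgG RIP replicate 1 (-0.87, FDR = 0.016), IgG RIP replicate 2 (-1.10, FDR = 0.0109), input replicate 2 (-0.99, FDR = 0.0173) or input replicate 3 (-0.92, FDR = 0.0185), and with a filter of 5 CPM (-0.98, FDR = 0.00412). The call of Slc38a11 between IgG RIPs and input was lost without input replicate 1 (-1.86, FDR = 0.0104) or input replicate 2 (-1.69, FDR = 0.0135). Slc38a5 had 17.9, 22.9 and 17.7 CPM in CELF2-KI RIPs, against 13.6, 18.9 and 19.9 CPM in IgG RIPs and 27.0, 37.95 and 41.6 CPM in input. Its CELF2-KI RIP libraries overlapped with IgG RIPs and lay below each input library, with -0.87 over input (FDR = 0.00475), under 2-fold.

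In the Slc6a family, which is named for its sodium- and chloride-coupled transmitter carriers, 3 of 16 tested members were higher than both controls. Slc6a6 takes up taurine and had the largest change over IgG RIP of the 17 carriers. In CELF2-KI RIPs Slc6a6 stood at 388, 847 and 568 CPM, in IgG RIPs at 132, 132 and 121 CPM and in input at 169, 177 and 183 CPM. The changes were 2.23 ± 0.23 (FDR = 3.25e-05) over IgG RIP and 1.77 ± 0.23 (FDR = 9.72e-05) over input, and the 3 CELF2-KI RIP libraries spread more than the controls. Slc6a17 loads neutral amino acids into synaptic vesicles. The CPM of Slc6a17 was 949, 1367 and 1019.8 in CELF2-KI RIPs, 296, 296 and 282 in IgG RIPs and 431, 419.9 and 439 in input. It was at 1.93 ± 0.14 (FDR = 7.9e-06) and 1.37 ± 0.14 (FDR = 2.08e-05), and its IgG RIP libraries lay below each input library. Slc6a9 (GlyT1) is the glycine carrier of glia and some neurons. Slc6a9 was measured at 121, 133 and 156 CPM in CELF2-KI RIPs, 49.2, 41.6 and 64.0 CPM in IgG RIPs and 57.2, 51.3 and 62.4 CPM in input. Its changes were 1.40 ± 0.17 (FDR = 8.07e-05) and 1.26 ± 0.17 (FDR = 0.000121), and the controls overlapped with each other.

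Slc6a11 (GAT-3) is a GABA carrier found on astrocytes. Slc6a11 had 853, 737 and 709 CPM in CELF2-KI RIPs, against 259, 251 and 264 CPM in IgG RIPs and 454, 413 and 425 CPM in input. CELF2-KI RIPs were above every control, at 1.57 ± 0.10 (FDR = 6.22e-06) over IgG RIP and 0.83 ± 0.10 (FDR = 6.81e-05) over input. Slc6a11 was thus called over IgG RIP and stayed under 2-fold over input, and IgG RIPs themselves stood lower than input, at -0.74 ± 0.10 (FDR = 0.000564).

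Other transmitter carriers had few counts in this tissue. The noradrenaline carrier Slc6a2 stood at 1.36, 3.23 and 1.52 CPM in CELF2-KI RIPs, 2.57, 3.57 and 3.30 CPM in IgG RIPs and 0.78, 0.86 and 0.73 CPM in input. It was called higher in IgG RIPs than in input (1.98 ± 0.39, FDR = 0.00311), and the CELF2-KI RIP mean lay between, with replicate 2 inside the IgG RIP range. The call was lost without IgG RIP replicate 2 or any 1 of the input libraries, with 1.88 to 2.04 and FDR of 0.0107 to 0.0187. The dopamine and serotonin carriers Slc6a3 and Slc6a4 stayed under 4 CPM in each library and were not called. Slc6a12, a betaine and GABA carrier, had the largest estimate over IgG RIP of the tested carriers, 5.61 ± 1.73 (FDR = 0.0187). It rested on 0, 2.16 and 2.14 CPM in CELF2-KI RIPs and 0, 0.099 and 0 CPM in IgG RIPs and was not called, and a fitted value so near 0 depends on the prior count. Its neighbour Slc6a13 (GAT-2) had 3.75, 9.22 and 42.0 CPM in IgG RIPs, where replicate 3 stood apart, and was not called either (0.76, FDR = 0.339).

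Slc6a18, known as a neutral amino acid carrier of the kidney, was highest in IgG RIPs. In CELF2-KI RIPs Slc6a18 stood at 19.8, 32.2 and 19.6 CPM, in IgG RIPs at 51.3, 52.5 and 32.0 CPM and in input at 8.79, 10.8 and 8.47 CPM. The lowest IgG RIP and the highest CELF2-KI RIP library were nearly equal, and both conditions lay above each input library. It was 2.27 ± 0.25 (FDR = 0.000231) in IgG RIPs over input, 1.35 ± 0.25 (FDR = 0.000954) in CELF2-KI RIPs over input and -0.92 ± 0.25 (FDR = 0.00942) in CELF2-KI RIPs over IgG RIP, so the call over input came with a higher CPM in the IgG control than in the CELF2 pull-down. The sugar carrier Slc5a2 (SGLT2), also best known from the kidney, was another of the 4 carriers called higher in IgG RIPs than in input. The CPM of Slc5a2 was 0.48, 0.23 and 0.18 in CELF2-KI RIPs, 1.25, 0.89 and 1.43 in IgG RIPs and 0.079, 0.20 and 0.15 in input. It was 3.03 ± 0.55 (FDR = 0.00214) over input in IgG RIPs and -1.99 in CELF2-KI RIPs over IgG RIP (FDR = 0.0162), and its span overlaps the coding gene Rusf1. The call of Slc5a2 between IgG RIPs and input was lost without input replicate 1 (2.75, FDR = 0.0146) or input replicate 3 (3.03, FDR = 0.0132). Slc6a18 was called lower than IgG RIPs without CELF2-KI RIP replicate 2 (-1.20), IgG RIP replicate 3 (-1.12) or input replicate 2 (-1.03).

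Between the controls themselves few carriers differed. In IgG RIPs 4 of 87 were called higher than in input (4.6%), beside 6.79% of all tested genes, namely Slc5a2, Slc6a2, Slc6a18 and Slc16a4. The 2 called lower (2.3%), beside 5%, were Slc38a5 and Slc38a11. Without IgG RIP replicate 3 these counts were 10 and 5. Shares of all tested genes in the fits with a library left out are not given, so these shifts are not read as particular to the carriers. The higher count was 1 or 2 without any other control library (1 without IgG RIP replicate 2 or input replicate 3, 2 without IgG RIP replicate 1, input replicate 1 or input replicate 2), and the lower count was 1 without input replicate 1 and 0 without input replicate 2. None of the 17 carriers higher than both controls was called between IgG RIPs and input, where they ranged from -0.78 to 0.32. In 13 of the 17 IgG RIPs were below input by estimate. The 10 carriers called over IgG RIP alone all had IgG RIPs below input by estimate, and the 6 called over input alone all had IgG RIPs above it. These 3 comparisons share libraries and come from one fit, so the change of IgG RIPs over input is set by the other 2. A carrier past 2-fold over only 1 control must have the controls in that order, so these counts largely restate the calls.

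**Figure D4:**
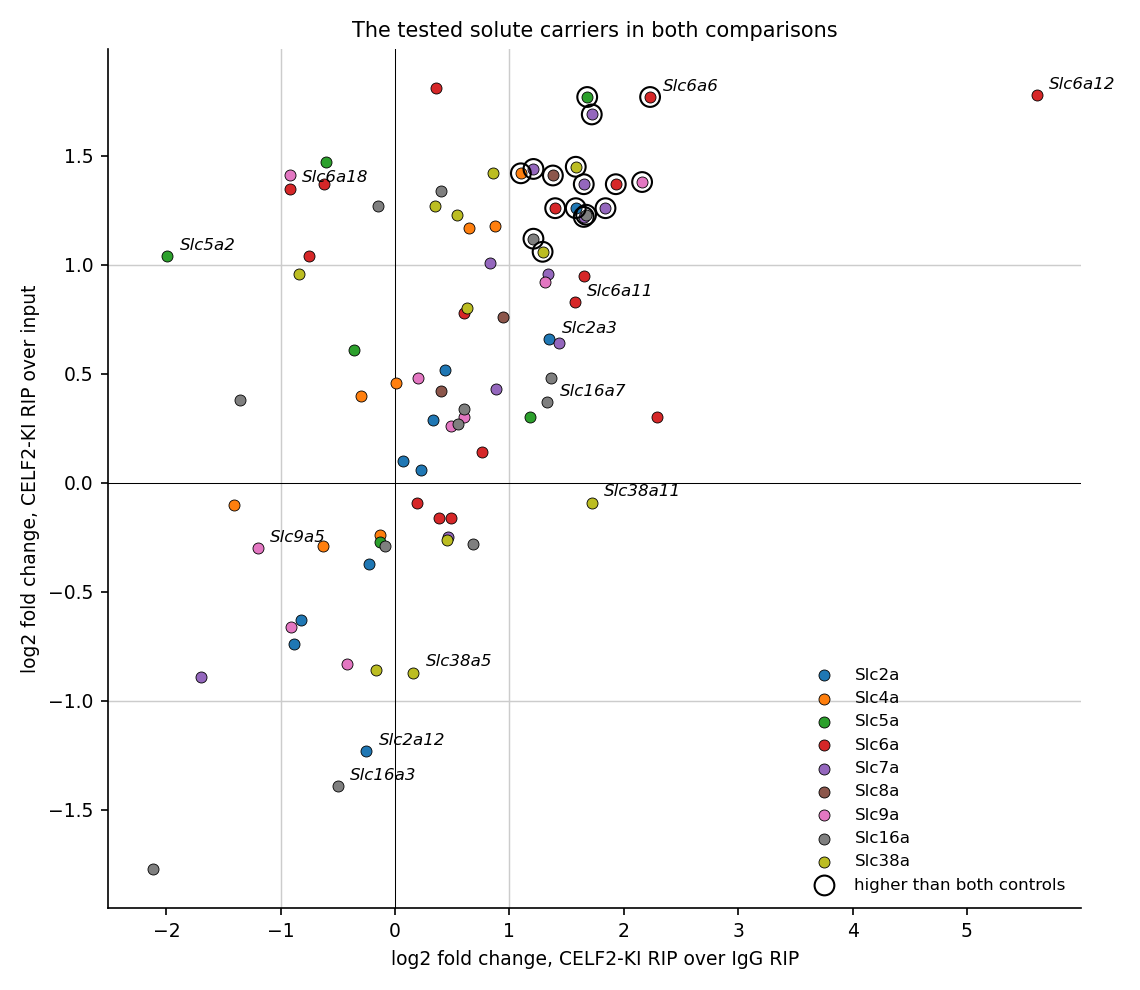
Log2 fold change in CELF2-KI RIPs over IgG RIP (horizontal axis) and over input (vertical axis) for the 87 tested carriers, coloured by family, with rings around those higher than both controls and grey lines at a 2-fold change. The axes share the CELF2-KI RIP libraries, the ringed genes lie at 1.10 to 2.23 and 1.06 to 1.77, and Slc6a12, at 5.61, was not called.

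Of the 10 tested sugar carriers of the Slc2a family, 2 were called higher than IgG RIPs, 1 higher than input and 1 lower than input. Slc2a3 (GLUT3), the glucose carrier of neurons, had the most counts. Slc2a3 was measured at 219, 213 and 184 CPM in CELF2-KI RIPs, 75.9, 78.4 and 88.0 CPM in IgG RIPs and 132, 129 and 128 CPM in input. Input lay between the pull-downs, so that Slc2a3 was called over IgG RIP (1.35 ± 0.11, FDR = 1.11e-05) and was under 2-fold over input (0.66 ± 0.11, FDR = 0.000392). Slc2a1 (GLUT1), the glucose carrier of brain endothelium and glia, had 53.6, 55.7 and 66.8 CPM in CELF2-KI RIPs, 42.0, 65.5 and 99.1 CPM in IgG RIPs and 60.2, 84.1 and 83.5 CPM in input. The 3 conditions overlapped for it, and it was not called (-0.23 and -0.37). The 1 member higher than both controls was Slc2a10 (GLUT10), at a low level. Slc2a10 had 9.12, 13.2 and 11.3 CPM in CELF2-KI RIPs, against 3.69, 3.07 and 4.44 CPM in IgG RIPs and 4.69, 4.97 and 4.33 CPM in input. Its changes were 1.58 ± 0.22 (FDR = 0.000191) and 1.26 ± 0.21 (FDR = 0.000511). In CELF2-KI RIPs Slc2a12 stood at 3.52, 5.47 and 5.53 CPM, in IgG RIPs at 4.13, 8.92 and 4.37 CPM and in input at 10.1, 11.8 and 12.2 CPM. Slc2a12 (GLUT12) was lower than input at -1.23 ± 0.31 (FDR = 0.00584), and it overlapped with IgG RIPs.

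In the Slc5a family the myo-inositol carrier Slc5a3 (SMIT1) was higher than both controls. The CPM of Slc5a3 was 265, 446 and 305 in CELF2-KI RIPs, 95.8, 100.01 and 122 in IgG RIPs and 100.5, 106 and 91.6 in input. The 6 controls lay within 91.6 to 122 CPM and each CELF2-KI RIP library was at 265 CPM or above. The changes were 1.68 ± 0.19 (FDR = 4.89e-05) and 1.77 ± 0.19 (FDR = 3.13e-05), and Slc5a3 was the 1 carrier of the 17 called under all 11 other settings. The span of Slc5a3 lies over that of the coding gene Mrps6, and how reads in the overlap were divided between them was not tested. Slc5a7, the choline carrier of cholinergic neurons, was called over IgG RIP (1.18) and was at 0.30 over input, with at most 4.72 CPM in any library. Of 11 members of this family, 6 passed the filter.

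Bicarbonate carriers of the Slc4a family were represented by Slc4a4 (NBCe1), an electrogenic sodium bicarbonate cotransporter of glia, which spans 446 kb. Slc4a4 was measured at 344, 523 and 383 CPM in CELF2-KI RIPs, 227, 188 and 170 CPM in IgG RIPs and 175, 149 and 145 CPM in input. It was at 1.10 ± 0.17 (FDR = 0.000389) over IgG RIP and 1.42 ± 0.17 (FDR = 6.95e-05) over input. The first of these fell to 0.90 without CELF2-KI RIP replicate 2, the highest library, and to 0.99 without input replicate 2, and the call was lost. Slc4a8 (NDCBE), its sodium-driven relative of neurons, had a close pattern. Slc4a8 had 321, 388 and 378 CPM in CELF2-KI RIPs, against 198, 191 and 203 CPM in IgG RIPs and 158, 159 and 161 CPM in input. Each CELF2-KI RIP library exceeded each control, with 1.18 ± 0.10 (FDR = 9.39e-06) over input and 0.87 ± 0.10 (FDR = 5.54e-05) over IgG RIP, the second under 2-fold. Slc4a3 had the opposite order of pull-downs, with 284, 274 and 182 CPM in IgG RIPs and 227, 175 and 198 CPM in CELF2-KI RIPs, and was not called.

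Of the sodium-proton exchangers of the Slc9a family, Slc9a7 (NHE7), an exchanger of the Golgi, was called over IgG RIP (1.31) and reached 0.92 over input. Slc9a5 (NHE5), a neuronal exchanger, was the 1 carrier called lower in CELF2-KI RIPs than in IgG RIPs. In CELF2-KI RIPs Slc9a5 stood at 22.8, 21.6 and 25.97 CPM, in IgG RIPs at 61.8, 57.2 and 42.5 CPM and in input at 27.5, 28.9 and 30.2 CPM. CELF2-KI RIPs were below each control, and input was nearer to them than IgG RIPs were. The log2 fold changes were -1.20 ± 0.16 (FDR = 0.000133) over IgG RIP and -0.30 over input (FDR = 0.122). Its span overlaps the coding gene Plekhg4. Calcineurin B homologous proteins are cofactors of these exchangers, and Chp1 was higher than both controls. The CPM of Chp1 was 113, 158 and 131 in CELF2-KI RIPs, 37.6, 35.6 and 47.4 in IgG RIPs and 49.3, 48.7 and 55.1 in input. It was at 1.74 ± 0.16 (FDR = 1.7e-05) and 1.39 ± 0.16 (FDR = 4.15e-05). Chp2 was called over IgG RIP (2.24 ± 0.44, FDR = 0.00158) at 3.36, 9.86 and 6.87 CPM in CELF2-KI RIPs, and stood at 1.22 over input (FDR = 0.023).

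All 3 sodium-calcium exchangers of the Slc8a family were above their controls in every library. Slc8a1 (NCX1), which spans 365 kb, had the highest CPM of the tested carriers. Slc8a1 was measured at 1828, 2712 and 1994 CPM in CELF2-KI RIPs, 895, 816 and 794 CPM in IgG RIPs and 869.7, 836 and 751 CPM in input. Its changes were 1.38 ± 0.15 (FDR = 3.95e-05) and 1.41 ± 0.15 (FDR = 3.12e-05), and the controls overlapped. Slc8a2 had 576, 479 and 507 CPM in CELF2-KI RIPs, against 254, 278 and 280.2 CPM in IgG RIPs and 322, 314 and 285 CPM in input. Slc8a2 (NCX2) was at 0.94 ± 0.11 (FDR = 5.04e-05) over IgG RIP and 0.76 ± 0.11 (FDR = 0.000158) over input, under 2-fold, and Slc8a3 (NCX3) at 0.40 ± 0.10 (FDR = 0.00739) and 0.42 ± 0.10 (FDR = 0.00479). Slc8a1 was thus the 1 member called.

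Of the monocarboxylate carriers, Slc16a9, a carnitine carrier, and Slc16a14, whose substrate is not settled, were higher than both controls. In CELF2-KI RIPs Slc16a9 stood at 19.3, 24.7 and 18.7 CPM, in IgG RIPs at 6.26, 7.93 and 5.66 CPM and in input at 9.73, 8.39 and 8.57 CPM. The CPM of Slc16a14 was 65.3, 71.5 and 57.8 in CELF2-KI RIPs, 26.2, 25.7 and 32.3 in IgG RIPs and 31.0, 30.6 and 27.6 in input. No control reached the CELF2-KI RIP libraries. The changes were 1.67 ± 0.19 (FDR = 4.86e-05) and 1.23 ± 0.18 (FDR = 0.000201) for Slc16a9. For Slc16a14 they were 1.21 ± 0.14 (FDR = 5.71e-05) and 1.12 ± 0.14 (FDR = 6.9e-05). The change of Slc16a14 over input was 0.99 with DESeq2 size factors, where its call was lost. It was called higher than both controls under 5 of the 11 other settings. Slc16a1 (MCT1) and Slc16a7 (MCT2), the lactate carriers of brain, were called over IgG RIP at 1.36 and 1.33 and stood at 0.48 and 0.37 over input.

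Slc16a3 (MCT4) was lower than input (-1.39 ± 0.35, FDR = 0.00646) at 2.32, 2.16 and 0.98 CPM in CELF2-KI RIPs, 2.94, 3.07 and 1.79 CPM in IgG RIPs and 4.59, 5.57 and 4.24 CPM in input. Slc16a4 was called higher in IgG RIPs than in input (1.74). Slc16a10, a carrier of aromatic amino acids, was called over input alone (1.34, with 0.40 over IgG RIP).

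Basigin (Bsg) is the ancillary protein that brings Slc16a1 and Slc16a3 to the membrane, and it was far lower in CELF2-KI RIPs. Bsg was measured at 67.5, 63.4 and 44.1 CPM in CELF2-KI RIPs, 161, 227 and 226 CPM in IgG RIPs and 518, 612 and 582.1 CPM in input. It was at -1.81 ± 0.19 (FDR = 3.07e-05) over IgG RIP and -3.29 ± 0.20 (FDR = 1.23e-06) over input, and IgG RIPs were themselves below input (-1.48 ± 0.18, FDR = 0.000356). The related Emb stayed between 2.08 and 5.53 CPM and was not called.

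Over the whole list of 26 partner genes, 24 were tested, 2 were higher than both controls and 3 lower, beside 7.58% and 9.54% of all tested genes, so that neither count stood far from what all genes gave. Over IgG RIPs 4 were higher and 3 lower, over input 3 were higher and 4 lower, and in IgG RIPs over input 0 were higher and 1, Bsg, lower. Their median log2 fold changes were 0.25 over IgG RIP and 0.04 over input, beside -0.06 and 0.19 for all tested genes. Beside Chp1, the other one higher than both was Txnip, an arrestin that acts on Slc2a1. Txnip had 329.8, 469 and 381 CPM in CELF2-KI RIPs, against 128, 142 and 180.2 CPM in IgG RIPs and 162, 170.2 and 187 CPM in input. It was at 1.39 ± 0.16 (FDR = 6.28e-05) and 1.18 ± 0.16 (FDR = 0.000138). Beside Slc3a2 and Bsg, the carbonic anhydrase Car4 was lower than both (-1.66 ± 0.45, FDR = 0.00996, and -2.54 ± 0.44, FDR = 0.000652) at 0.77 to 1.28 CPM in CELF2-KI RIPs. Car2 was lower than input (-1.40, FDR = 0.00862), Car12 higher than IgG RIPs (1.09, FDR = 0.00399) and Ahcyl2, a regulator of Slc4a4, higher than input (1.37, FDR = 0.000107).

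For many carriers the counts of a gene were spread over several transcripts. Of the 17 carriers higher than both controls, 10 had at least 2 transcripts with 10% or more of the counts, as estimated by pseudoalignment from reads that related transcripts share. In Slc6a17 the curated transcript NM_001293689.1 held 403, 522 and 597 CPM in CELF2-KI RIPs, 161, 238 and 207 CPM in IgG RIPs and 230.0, 243 and 238 CPM in input. The predicted transcript XM_006501407.2 held 515, 761 and 388 CPM in CELF2-KI RIPs and 121, 111 and 133 CPM in input, and in IgG RIPs almost none in replicates 1 and 3 and 23.98 CPM in replicate 2. By these estimates the excess over IgG RIPs was larger for the second transcript, and its split from the first was uneven between IgG RIP libraries. In Slc38a1 the predicted XM_006520235.3 held 247, 524 and 227 CPM in CELF2-KI RIPs, 0.013, 0.70 and 43.8 CPM in IgG RIPs and 8.76, 26.6 and 2.62 CPM in input. The curated NM_001166458.1 of the same gene held 247, 398 and 391 CPM, 173, 146 and 152 CPM, and 146, 156 and 147 CPM in the same order. No test was run on single transcripts.

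**Figure D5:**
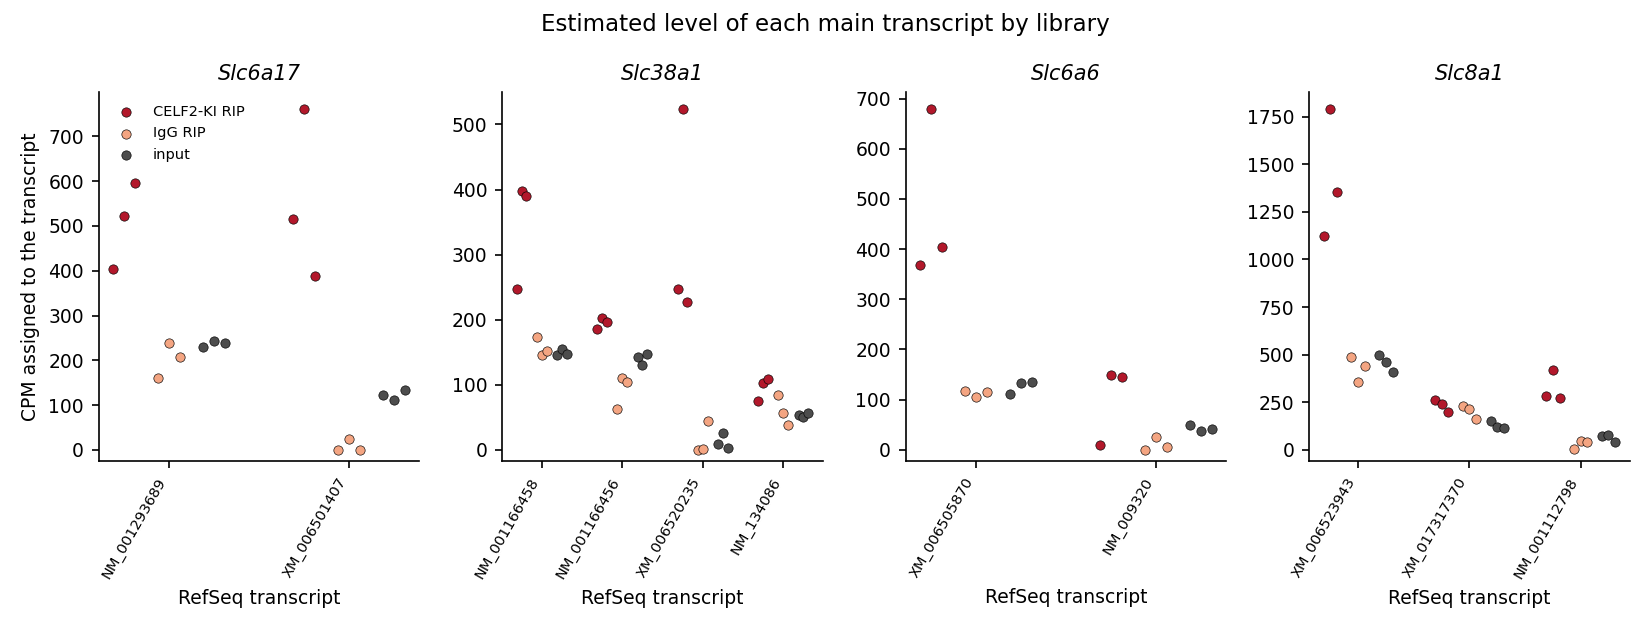
Estimated CPM of each transcript that holds 10% or more of the counts of Slc6a17, Slc38a1, Slc6a6 and Slc8a1, with 3 libraries per condition. In Slc38a1 the predicted transcript XM_006520235 lies at 227 to 524 CPM in CELF2-KI RIPs and at 0.013 to 43.8 CPM in IgG RIPs.

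In Slc6a6 the predicted XM_006505870.1 held 79.9% of the counts, and in Slc8a1 the predicted XM_006523943.1 held 60.1%. When only curated transcripts were summed, 12 of the 17 carriers were still called higher than both controls, and Slc6a6, Slc7a2, Slc16a9 and Slc38a1 were among those that were not. From curated transcripts Slc7a2 had 1.72 over IgG RIP (FDR = 0.0118) and stayed called over input, so its size over IgG RIP was kept and the FDR missed the limit. Slc6a6 had 3.18 (FDR = 0.0773) and 1.25 (FDR = 0.429), and Slc16a9 had 1.47 (FDR = 0.0211) and 0.69 (FDR = 0.202). Slc38a1 fell under 2-fold, at 0.88 (FDR = 0.00116) and 0.87 (FDR = 0.00118). Genomic spans of the 17 had a median of 50.5 kb (4.87 to 446 kb), beside 36.2 kb in the other 70 tested carriers, a difference that was not tested. Slc7a4 had the shortest (chr16:17572018-17576890) and Slc4a4 the longest (chr5:88793858-89239656), in GRCm38. Of the 17, Slc5a3 (chr16:92058322-92087473) and Slc6a9 (chr4:117835258-117869305) overlap another coding gene, Mrps6 and Ccdc24. Such overlaps touch 14 of the 87 tested carriers, among them Slc2a12 (Tbpl1), Slc7a3 (Snx12), Slc7a7 (Oxa1l), Slc9a7 (Chst7), Slc16a3 (Csnk1d), Slc16a4 (Rbm15) and Slc38a6 (Trmt5). Whole gene spans were compared without regard to exons or strand, so whether such a pair shared any reads was not tested.

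Neuronal and glial markers of the cortex were present in each library, and the sums of several lists differed between conditions. The counts of markers called below stand beside 7.58% of all tested genes higher and 9.54% lower than both controls, and a single call in a list of 5 to 8 genes does not set it apart from them. The summed CPM of 8 excitatory neuron markers was 1681 to 2290 in CELF2-KI RIPs, 913 to 1062 in IgG RIPs and 994 to 1165 in input, and 3 of 8 were higher than both controls. The 8 radial glia markers summed to 510 to 968, 768 to 853 and 1167 to 1369 CPM, and 3 of 8 were lower than both. The 6 astrocyte markers summed to 1769 to 2278, 787 to 843 and 934 to 1150 CPM, with 1 higher and 1 lower than both. Among 7 erythroid genes, of which Ahsp was at 0 in all libraries, the sums were 92.7 to 95.0, 366 to 584 and 877 to 1135 CPM, and 4 of 5 tested were lower than both. Of the other lists, inhibitory neurons had 1 of 8 markers higher and 1 lower than both controls, microglia 1 of 5 and endothelium 1 of 8 lower than both, and oligodendrocyte precursors, choroid plexus and meninges none in either direction. The part of these differences in the carriers' values was not tested.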

How the data were processed

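RIP-seq was performed on 3 CELF2-KI RIP, 3 IgG RIP and 3 input libraries. According to the paper and the labels, libraries were rRNA-depleted and directional, reads were checked with FastQC 0.11.9, trimmed with fastp 0.23.4, cleared of rRNA with Ribodetector 0.3.1 and pseudoaligned with kallisto 0.51.1, and the submitters' processing notes also name edgeR 4.4.0, DESeq2 1.46.0 and mm10. The authors deposited estimated counts (expected counts) per RefSeq transcript, not normalized for depth or length, while the paper names an Ensembl transcriptome. The strand setting of the counting is not given in the sources used here. All 9 columns were used, and 0 were left out.

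Of 107384 transcripts, 86722 matched a RefSeq gene table of GRCm38.p6 by accession without version, giving 32903 genes. The matched transcripts held 56.5% to 90.8% of a library's counts. Counts were summed per gene and rounded, protein-coding genes with 0.5 CPM in at least 3 libraries were kept, and edgeR 4.0.16 (R 4.3.3) was fitted with TMM scaling, a mean per condition and the quasi-likelihood test, with Benjamini-Hochberg FDR under 0.01 and at least 2-fold for a call. The common biological coefficient of variation was 0.221, with 6 residual degrees of freedom. The members, families and gene lists were chosen with earlier results of these data known. Symbols with a letter after the number, of which there were 4, were not counted as members. Genes named are the members higher or lower than both controls, the best-counted member of each family, the 3 largest rises and falls between IgG RIP and input among those called, members called in 1 comparison of CELF2-KI RIP with the opposite sign in the other, and partner genes called in any comparison, except for a few members that are not reported here by name.

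Alternatives were DESeq2 size factors, upper-quartile scaling, library totals, TMM over coding and noncoding genes, no filter, a filter of 5 CPM, the DESeq2 1.42.0 Wald test, limma 3.58.1 (voom), edgeR's glmTreat, a replicate block, curated transcripts alone and each library left out in turn. Deviations from the condition mean were correlated over 11534 genes between libraries of the same number. The correlations were 0.185, 0.122 and 0.213 for CELF2-KI RIP and input, -0.0702, 0.0382 and -0.0107 for CELF2-KI RIP with IgG RIP, then 0.0873, 0.0636 and 0.00793 for IgG RIP and input. Libraries of different numbers were not correlated and genes within a library are not independent, so whether the number marks a pair was not settled. The labels call the 3 libraries of a condition biological replicates and do not say which animals they came from. The fits were tested on simulated data. Tables and figures were made with pandas 2.3.3 and matplotlib 3.10.9 under Python 3.11.15.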

Additional observations from a re-analysis of the deposited data

How the results depend on the processing

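Carriers that exceeded both controls in CELF2-KI RIPs numbered 17 in the analysis above, beside 7.58% of all tested genes. The count was 11 with upper-quartile scaling (beside 3.4%) and 5 with TMM over coding and noncoding genes (beside 2.46%). It was 3 with library totals (beside 1.55%) and with glmTreat (beside 0.793%), which asks for a change beyond 2-fold. With a library left out it was 15 to 19. This last count and those below stand without shares of all tested genes. A count that moved there is not read as particular to the carriers. Over IgG RIP the higher count (27) was 17 with library totals, 12 with glmTreat and 25 to 28 with a library left out. Over input the higher count (23) was 3 with library totals, 8 with TMM over all genes, 4 with glmTreat, 15 with curated transcripts and 20 to 28 with a library left out. Lower than IgG RIP (1) were 2 with DESeq2 size factors and with the replicate block, 3 without a filter, at 5 CPM, with the DESeq2 Wald test and with curated transcripts, 5 with TMM over all genes, 8 with upper-quartile scaling and library totals, 0 with glmTreat, and 1 to 6 with a library left out (6 without IgG RIP replicate 3, 4 without CELF2-KI RIP replicate 2). Lower than input (2) were 5 with upper-quartile scaling, 7 with library totals and TMM over all genes, 1 at 5 CPM and with curated transcripts, 0 with glmTreat, and 0 to 2 with a library left out (0 without CELF2-KI RIP replicate 3, input replicate 2 or input replicate 3). Lower than both (0) were 2 with library totals and with TMM over all genes, and 0 to 1 with a library left out. In IgG RIP over input the higher count (4) was 7 with the DESeq2 Wald test, 1 with glmTreat and 1 to 10 with a library left out (1 without IgG RIP replicate 2 or input replicate 3, 2 without IgG RIP replicate 1, input replicate 1 or input replicate 2). The lower count (2) was 4 with DESeq2 size factors and library totals, 5 with TMM over all genes and the DESeq2 Wald test, 0 with glmTreat and at 5 CPM, and 0 to 5 with a library left out (0 without input replicate 2). Apart from the construction of glmTreat, the cause was not tested.

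Under the replicate block, which pairs libraries by number, 17 carriers were higher than both controls, the same 17, and apart from the carriers lower than IgG RIP (2 against 1) no count of calls moved by over 1.5 times. Of the 17 carriers, 15 were called in each of the 9 fits with a library left out, all but Slc4a4 and Slc38a2 (7 of 9 each). The 11 other settings called fewer, with Slc38a2 called under 4 of them and Slc16a14 under 5. Families with a median above all tested genes numbered 6 to 8 over IgG RIP and 7 to 9 over input under the other settings, and 7 to 9 and 7 to 8 with a library left out. Signs changed in values that had not been called. For IgG RIP over input these were Slc8a1 at -0.04 (DESeq2 size factors and Wald test), -0.07 (library totals), -0.15 (TMM over all genes), -0.85 (curated transcripts) and -0.05 to 0.07 (a library left out), Slc5a3 at -0.00 and -0.07 (library totals, TMM over all genes) and -0.02 to 0.17 (a library left out), Slc7a2 at 0.02 and 0.04 (5 CPM, curated transcripts) and -0.12 to 0.02 (a library left out), and Slc6a17 at 0.03 and Slc16a14 at 0.23 (curated transcripts). For CELF2-KI RIP over IgG RIP it was Slc38a5 at -0.10, -0.21 and -0.07 (upper-quartile scaling, library totals, TMM over all genes). Carriers under about 1 CPM rested on few reads in the RIP libraries, where only large differences were detectable.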
